A study of Mus musculus with 21 samples.

Results

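The Th2 cytokine locus and its flank were described in EL4 cells, a mouse T lymphoma line of C57BL/6 origin, after knockdown of Ctcf. The genes were chosen by name and position and not by their values, though earlier results of these data were known. They are Uqcrq, Kif3a, Il4, Il13, Rad50, Il5, Csf2 and Il3, in their order along chromosome 11, and make 8 of 21844 gene symbols in the deposited expression table. A symbol listed on more than 1 row was represented by its row of highest mean. EL4 cells carried a short hairpin against Ctcf (shCTCF, 2 libraries) or the control hairpin labelled shLuc (2 libraries), and poly(A) RNA was sequenced. Both groups share the line, the strain and the presence of a hairpin. The labels do not say how many hairpins against Ctcf were used, so what follows from reduced Ctcf and what from the hairpin itself cannot be told apart. Nor do they say whether the libraries are separate cultures, and p-values then reflect only the spread between libraries, which may be technical. They name no activating stimulus for EL4. The other 17 of the 21 samples of the series, which are Hi-C, ChIP-seq and input libraries and 1 EL4 RNA library, were not analysed here.

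Il4, Il13 and Il5 encode the cytokines that define T helper 2 (Th2) cells. They sit around Rad50, a housekeeping gene of DNA repair whose distal part holds a locus control region for its cytokine neighbours. The transcription factor GATA3 opens this locus in Th2 cells, and transcription of the cytokine genes then follows stimulation of the T cell receptor through factors such as NFAT. Csf2 (GM-CSF) and Il3 form a neighbouring cytokine pair on the same chromosome. CTCF binds insulator sites and, with cohesin, holds chromatin loops between enhancers and promoters, and the series set CTCF binding and its loss beside enhancer-promoter contacts and expression.

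The promoters of these genes are shown first, because those of the cytokine genes, silent or low here, and of the expressed Kif3a differ in the letters they hold. Of the 8 genes 6 had promoter sequences in the RefSeq-derived table of build GRCm38.p6. Rad50 and Uqcrq had no entry. Each line gives the 250 bases before the transcription start, 5′ to 3′ on the gene's strand. Capitals mark CG dinucleotides and, within the 50 bases next to the start, the letters TATA, the core of a TATA box. The windows are chr11:53618666-53618915 on the minus strand for Il4, chr11:53634703-53634952 (minus) for Il13 and chr11:53720544-53720793 (plus) for Il5. Those of Csf2, Il3 and Kif3a are chr11:54249900-54250149 (minus), chr11:54267280-54267529 (minus) and chr11:53567119-53567368 (plus). For Il4 the start farther upstream is shown.
Il4: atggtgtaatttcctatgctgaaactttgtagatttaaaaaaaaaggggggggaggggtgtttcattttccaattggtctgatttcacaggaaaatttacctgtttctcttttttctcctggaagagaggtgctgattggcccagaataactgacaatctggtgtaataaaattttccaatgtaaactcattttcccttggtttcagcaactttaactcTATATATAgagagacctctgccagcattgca
Il13: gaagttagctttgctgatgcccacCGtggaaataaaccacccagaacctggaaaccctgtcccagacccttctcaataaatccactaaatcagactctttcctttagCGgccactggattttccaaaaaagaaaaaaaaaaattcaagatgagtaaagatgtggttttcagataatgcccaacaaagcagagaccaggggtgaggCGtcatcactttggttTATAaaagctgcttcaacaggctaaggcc
Il5: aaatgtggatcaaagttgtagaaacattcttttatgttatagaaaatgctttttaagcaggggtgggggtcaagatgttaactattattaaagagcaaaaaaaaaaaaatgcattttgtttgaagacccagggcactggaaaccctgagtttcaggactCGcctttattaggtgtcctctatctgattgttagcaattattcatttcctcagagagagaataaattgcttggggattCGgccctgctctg
Csf2: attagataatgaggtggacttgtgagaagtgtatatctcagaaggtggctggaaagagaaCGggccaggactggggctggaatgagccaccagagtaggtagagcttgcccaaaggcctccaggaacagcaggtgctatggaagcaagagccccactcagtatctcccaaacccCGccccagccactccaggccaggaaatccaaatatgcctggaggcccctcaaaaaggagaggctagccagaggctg
Il3: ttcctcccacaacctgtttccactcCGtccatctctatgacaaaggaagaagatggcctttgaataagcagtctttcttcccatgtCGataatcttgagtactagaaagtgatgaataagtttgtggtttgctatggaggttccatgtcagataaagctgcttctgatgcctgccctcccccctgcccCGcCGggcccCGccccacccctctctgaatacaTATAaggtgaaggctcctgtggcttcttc
Kif3a: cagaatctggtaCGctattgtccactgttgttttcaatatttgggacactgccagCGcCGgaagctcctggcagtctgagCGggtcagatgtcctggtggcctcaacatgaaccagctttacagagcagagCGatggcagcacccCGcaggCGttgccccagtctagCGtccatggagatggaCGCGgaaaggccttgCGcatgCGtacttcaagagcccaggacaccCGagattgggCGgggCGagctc

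The cytokine promoters held few CG dinucleotides, with 0 in Il4, 3 in Il13, 2 in Il5, 2 in Csf2 and 5 in Il3. The promoter of Kif3a held 15. A further Il4 start in the table had 1. Over 8157 promoters of genes with a mean of 1 RPKM or more in these libraries the median was 16 (quartiles 9 and 23), and over 5630 promoters of genes without a read it was 3 (quartiles 1 and 8). RPKM scales reads by the length of the gene model and by library depth. TATA stood near the start in Il4, Il13 and Il3, and its first base lay at -31, -29 and -29 relative to the start in these 3 genes. It was not found in that window of Il5, Csf2 or Kif3a, nor in that of the further Il4 start. Of all 32851 promoters 9.08% held it there, with 4.4% among genes of 1 RPKM or more and 15.9% among genes without a read. CG and TATA read the same on both strands.

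The core motif of NFAT, GGAAA, was searched on both strands with overlaps allowed. It occurred 5 times in Il4, 4 times in Il13, 2 times each in Il5 and Csf2 and 1 time each in Il3 and Kif3a, and 55.6% of all promoters held it at least once. GATA, the core letters bound by GATA3, occurred 3 times in Csf2, 2 times in Il3, 1 time each in Il13 and Il5, and not in the windows shown for Il4 and Kif3a. Of all promoters 53.6% held GATA on either strand. The other Il4 start had 3 GATA and 0 GGAAA matches. These matches describe letters and are no evidence of binding. CG content alone did not sort the neighbours. Among them P4ha2, Slc22a4 and Fstl4 had 21, 26 and 26 CG dinucleotides with mean levels of 0.919, 0.018 and 0.032 RPKM, whereas Zcchc10 had 7 at 16.4 RPKM. The plot of CG counts by expression class places the 6 genes on the distributions of both classes.

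**Figure D1:**
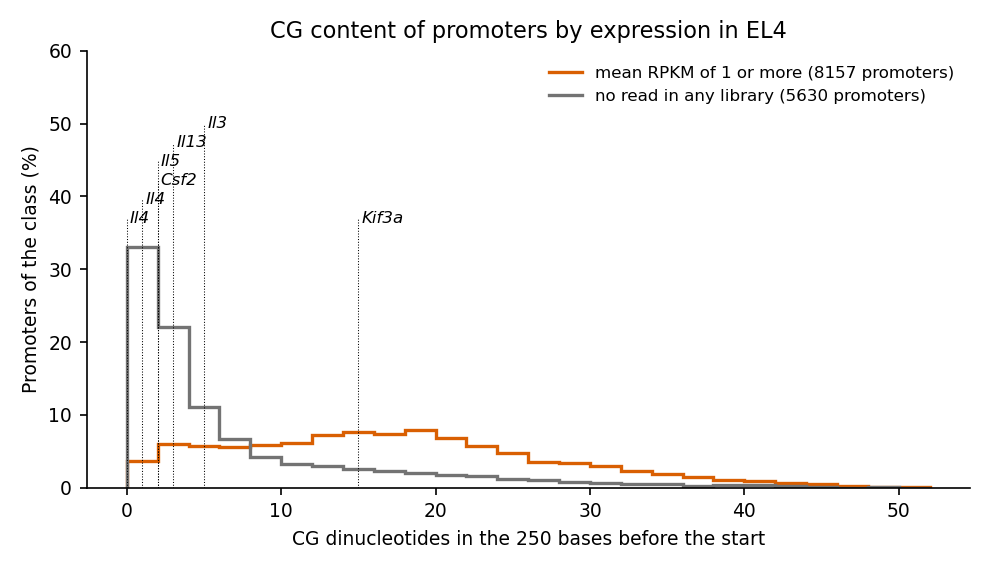
Percentage of promoters (y axis) by the number of CG dinucleotides in the 250 bases before the start (x axis, bins of 2), for genes with a mean of 1 RPKM or more (orange, 8157 promoters) and genes without a read (grey, 5630 promoters). Dotted lines mark the listed genes, with both Il4 starts. The cytokine genes lie at 0 to 5 and Kif3a at 15.

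For 97.0% of the 7035 expressed single-transcript rows, RPKM values were whole multiples of the value of 1 read, which gave reads per gene and a divisor for each library. The divisors were 4346709 and 5768563 reads in the shCTCF libraries headed 2 and 3 of the deposited table, and 5240362 and 6133046 reads in the shLuc libraries headed 2 and 3. On a gene model of 1 kb, 1 read was worth 0.230 and 0.173 RPKM in shCTCF and 0.191 and 0.163 RPKM in shLuc. A value of 0 allows up to 3 reads in a library, a limit that covers counting error only. On 1 kb that is 0.690 and 0.520 RPKM in shCTCF, and 0.572 and 0.489 RPKM in shLuc libraries. The target of the hairpin, Ctcf, fell to 26.5 ± 0.104 RPKM in shCTCF cells, against 49.9 ± 1.35 RPKM in shLuc cells (SD, n = 2 each), and the limma test gave an adjusted p of 0.0075 (log2 change −0.89, standard error or SE 0.08). Here and below a log2 change is the shCTCF mean minus the shLuc mean of log2(RPKM + 1), so that changes of low genes come out too small. Without the shLuc library headed 2 or 3 the limma call of Ctcf was lost, at log2 changes of −0.92 and −0.86. It passed in limma-voom on the recovered reads (log2 change −0.92, adjusted p = 1.4e-08). The authors' deposited table of changed genes gives Ctcf an FDR of 9.7e-24.

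Of the 5 cytokine genes, 4 were silent or nearly so in this line, and Csf2 was just above that. Il4, the signature cytokine of Th2 cells, had 0 reads in both shCTCF libraries and 0 in both shLuc libraries. Il3, a growth factor of blood progenitors and mast cells, likewise had 0 reads in all 4 libraries. No read in any library was the state of 35.7% of the 21844 symbols. At most 3 reads over the 4 libraries were found for 50.2% of the 18985 symbols whose reads were recovered or 0. Il13, which drives mucus production and airway responses, had 0.191 and 0 RPKM in shCTCF cells, against 0.158 and 0 RPKM in shLuc cells. Each of these values above 0 rests on 1 read over an implied model of 1206 bases. Il5, the growth and survival factor of eosinophils, had 0 and 0.113 RPKM in shCTCF cells, against 0 and 0.106 RPKM in shLuc cells. Again 1 read in the library headed 3 of each group was found, over 1534 bases. No fold is given for these 4 genes, since both groups lie at or under the limit that a count of 0 allows. At this depth neither expression above that limit nor a change of it was detectable for them.

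Csf2 encodes GM-CSF, a growth factor of macrophages and granulocytes. It had 0.445 and 0.336 RPKM in shCTCF cells, against 0.369 and 1.42 RPKM in shLuc cells, from 2 and 2 reads against 2 and 9 reads. The groups overlapped, and only the shLuc library headed 3 stood apart. The reads per depth in shCTCF over shLuc had a ratio of 0.409, with an exact 95% interval for counting error of 0.095 to 1.38. Without the shLuc library headed 3 the ratio was 1.04 (0.148 to 11.5), and without the one headed 2 it was 0.269 (0.061 to 0.966). With a mean of 0.643 RPKM over the 4 libraries Csf2 lay under the minimum of 1 RPKM for the test, as did Il4, Il13, Il5 and Il3.

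**Figure D2:**
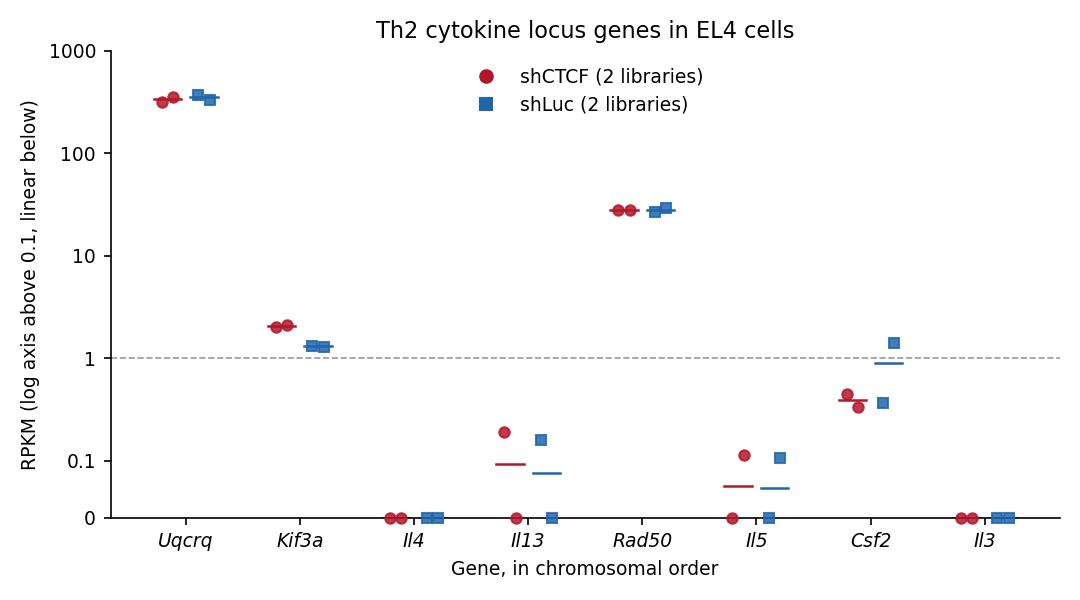
RPKM of the 8 genes in each library (y axis, logarithmic above 0.1 and linear below), in chromosomal order, with shCTCF libraries as circles and shLuc libraries as squares. Short bars are group means, and the dashed line is the minimum mean of 1 RPKM for testing. Uqcrq, Rad50 and Kif3a lie above the line, and Il4 and Il3 are at 0 in all 4 libraries.

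The other 3 of the 8 genes were expressed. Rad50, the coiled-coil ATPase of the MRE11-RAD50-NBN complex, lies between Il13 and Il5. It had 27.8 and 28.3 RPKM in shCTCF cells, against 27.03 and 29.5 RPKM in shLuc cells. These values rest on 622 and 841 reads, against 730 and 933 reads. The shCTCF values fall within the range of the shLuc values. In limma the log2 change was −0.01 (SE 0.09, 95% interval −0.22 to 0.19, adjusted p = 0.98). The mean over the 4 libraries, 28.2 RPKM, was higher than that of 84.3% of all symbols.

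Kif3a, a motor subunit of heterotrimeric kinesin-2, which carries cargo along cilia, lies on the other side of Il4. It had 2.03 and 2.14 RPKM in shCTCF cells, against 1.33 and 1.29 RPKM in shLuc cells, from 48 and 67 reads against 38 and 43 reads. Both shCTCF libraries lay above both shLuc libraries, a separation that 24.1% of all tested genes showed in that direction and 44% in either. The mean level was 1.59 times that of shLuc cells. The log2 change was 0.42 (SE 0.18, 95% interval 0.0037 to 0.83) in limma. Its unadjusted p was 0.048 and its adjusted p 0.35, so the difference did not pass. An unadjusted p below 0.05 was reached by 14.1% of tested genes. Its size depends on the scale, at 0.63 with a pseudocount of 0.1 (adjusted p = 0.37 in limma) and 0.67 with limma-voom on the recovered reads (adjusted p = 0.063). In such bulk libraries a change in the number of expressing cells and a change in RNA per cell cannot be told apart. RefSeq places the long noncoding RNA A430108G06Rik, which has no row of its own, beside the start of Kif3a, and whether reads were counted by strand is not given, so their reads may not be separable. The RefSeq positions of Gdf9 and Uqcrq overlap, with the same limit.

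Uqcrq, a small subunit of respiratory complex III, was the most highly expressed of the 8. It had 318 and 357 RPKM in shCTCF cells, against 368 and 333 RPKM in shLuc cells, from 690 and 1029 reads against 963 and 1019 reads. The groups overlapped. The log2 change was −0.05 (SE 0.09, 95% interval −0.26 to 0.15, adjusted p = 0.86 in limma). Its mean of 344 RPKM exceeded that of 99.4% of symbols.

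In limma 0 of these 3 tested genes were called at an adjusted p below 0.05, and with limma-voom also 0, while 1 (Kif3a) had an unadjusted p below 0.05. Over all 9898 tested genes 128 were called, or 1.29%, of which 0.697% were higher and 0.596% lower in shCTCF cells. With limma-voom 369 of 7524 genes were called, or 4.9%, with 2.31% of the tested genes lower. In limma the count was 0 without the shLuc library headed 2, 2 without the one headed 3, and 78 and 58 without the shCTCF libraries headed 2 and 3. Each of these fits leaves 1 group with a single library, which is assumed to vary like the other group. The log2 change of Ctcf in them ran from −0.92 to −0.86. The authors' deposited table of 435 changed genes lists 0 of the 8.

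By level the order was Uqcrq, Rad50, Kif3a, Csf2, Il13 and Il5, with Il4 and Il3 at 0. The steps from Uqcrq to Rad50 and from Rad50 to Kif3a exceeded the spread over libraries in both groups. Kif3a and Csf2 overlapped within shLuc cells, at 1.33 and 1.29 RPKM against 0.369 and 1.42 RPKM. Il13, Il5, Il4 and Il3 could not be ordered at this depth. Among tested genes the profiles most like each expressed gene over the 4 libraries, by the root-mean-square difference of centred log2 values, were Gnai3 (0.0018) and Heatr3 (0.0043) for Rad50. For Kif3a they were Supt4h1 (0.011) and Tnfsf9 (0.012), and for Uqcrq Lsm6 (0.0075) and Mrgpre (0.0087).

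Silent and expressed genes alternated along the wider stretch. In RefSeq order (GRCm38.p6, used only for neighbourhood) 28 protein-coding genes run from Fstl4 to Cdc42se2, the 8 genes included. Of these 13 had a mean of 1 RPKM or more, 10 were above 0 but under that, and 5 had no read. Among all symbols 45.3% reached 1 RPKM. Shroom1, Sowaha and 4930404A10Rik (Meikin in RefSeq) had no read, like Il4 and Il3. Leap2 and Gdf9, which flank Uqcrq, averaged 0.231 and 0.208 RPKM in shCTCF cells and 0.520 and 0.151 RPKM in shLuc cells. P4ha2, an enzyme of collagen maturation beside Csf2, had 0.622 and 0.835 RPKM in shCTCF cells, against 1.12 and 1.10 RPKM in shLuc cells, and was not tested. Slc22a4, Slc22a21, Acsl6 and Fstl4 averaged 0 to 0.540 RPKM in shCTCF cells and 0.026 to 0.385 RPKM in shLuc cells.

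**Figure D3:**
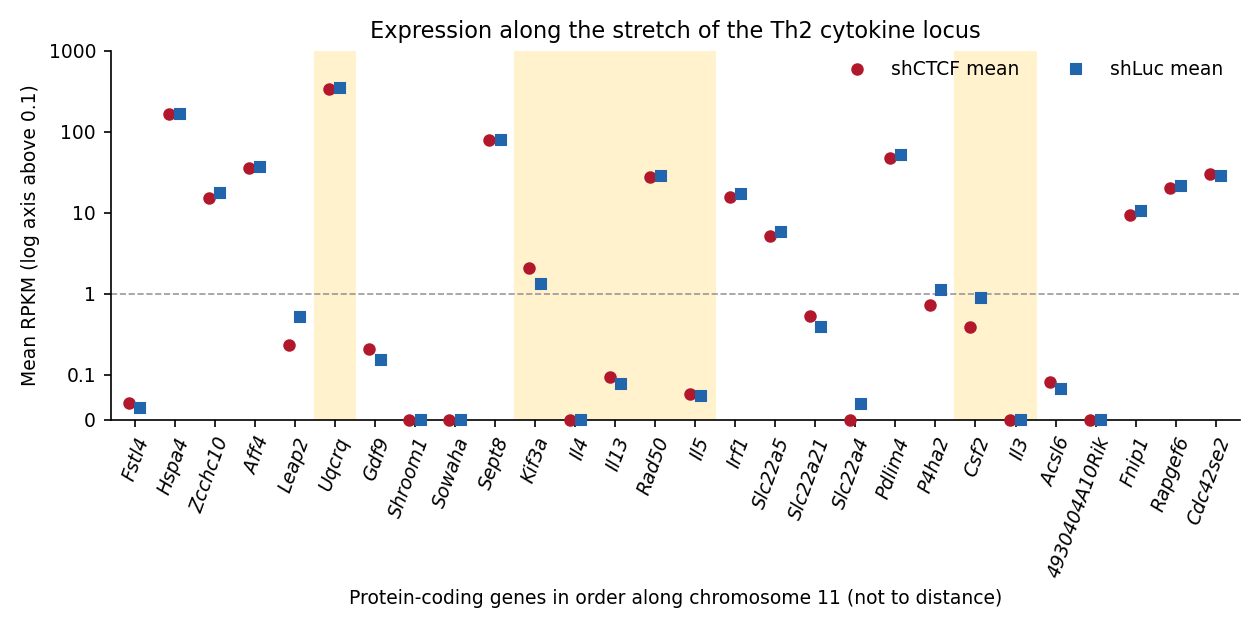
Mean RPKM (y axis, logarithmic above 0.1) of 28 protein-coding genes in their order along chromosome 11 (x axis, not to distance), for shCTCF (circles) and shLuc (squares, 2 libraries each). Shading marks the 8 listed genes, and the dashed line is 1 RPKM. Rad50 stands between Il13 and Il5, which lie near 0.

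None of the 10 tested neighbours passed in limma (0 at an unadjusted p below 0.05, and 0 of 8 in limma-voom), and the smallest adjusted p was 0.52. Over all genes so tested these shares were 1.29% in limma, 14.1% at an unadjusted p below 0.05 and 4.9% in limma-voom. Their median log2 change was −0.10, against 0.01 over all tested genes, and 9 of 10 were negative in value, against 46.7% of all tested genes. Neighbours were fixed by position, and no test was made of the list. The log2 changes ran from −0.21 (Zcchc10, a zinc-knuckle protein) to 0.07 (Cdc42se2, an effector of the GTPase CDC42). Irf1, an interferon-induced transcription factor next to Il5, had 15.9 and 15.8 RPKM in shCTCF cells, against 17.5 and 16.9 RPKM in shLuc cells (log2 change −0.11, SE 0.09). Pdlim4, an actin-associated protein, had 48.0 and 47.5 RPKM in shCTCF cells, against 52.8 and 52.0 RPKM in shLuc cells (log2 change −0.13, SE 0.08). Fnip1, a partner of folliculin, had 9.27 and 9.47 RPKM in shCTCF cells, against 10.3 and 10.6 RPKM in shLuc cells (log2 change −0.14, SE 0.10). In these 3 genes both shCTCF libraries lay below both shLuc libraries, as in 19.9% of all tested genes.

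The other tested neighbours overlapped between groups. Hspa4, a heat shock protein of the HSP110 family, averaged 164 ± 8.54 RPKM in shCTCF cells and 166 ± 8.56 RPKM in shLuc cells (SD, n = 2 each). Sept8, a septin, averaged 78.6 ± 3.21 RPKM in shCTCF cells and 78.8 ± 3.27 RPKM in shLuc cells. Aff4, a scaffold of the super elongation complex, averaged 35.4 ± 0.354 RPKM in shCTCF cells and 36.6 ± 2.05 RPKM in shLuc cells. Slc22a5, the carnitine transporter, averaged 5.23 ± 0.363 RPKM in shCTCF cells and 5.72 ± 0.434 RPKM in shLuc cells. Rapgef6, an exchange factor for Rap GTPases, averaged 20.4 ± 0.565 RPKM in shCTCF cells and 21.7 ± 2.16 RPKM in shLuc cells.

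**Figure D4:**
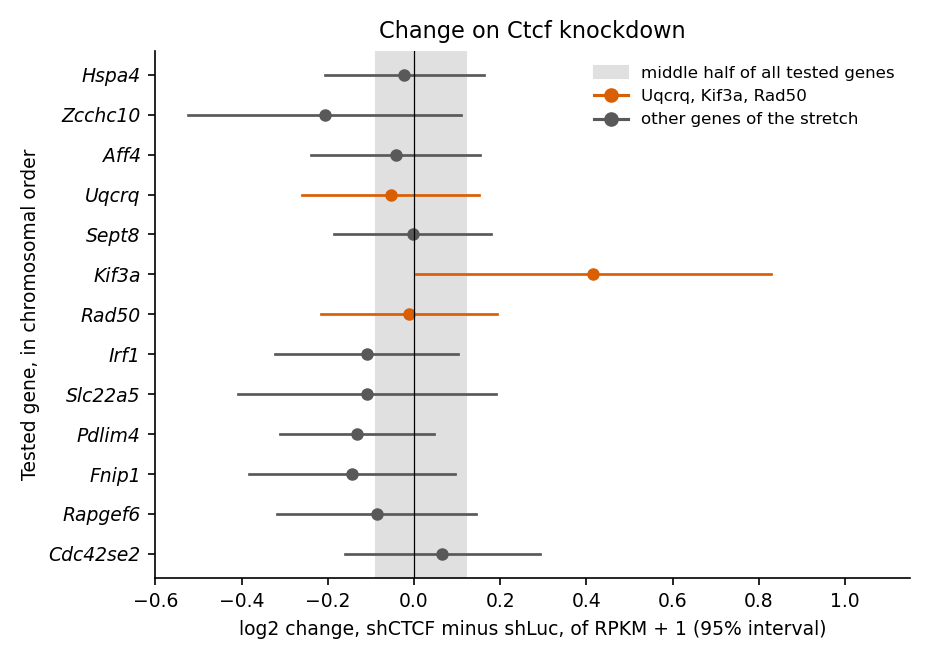
Log2 change of RPKM + 1, shCTCF minus shLuc (x axis), with 95% intervals from limma, unadjusted for the number of genes, for the 13 tested genes of the stretch in chromosomal order. Orange marks Uqcrq, Kif3a and Rad50, and the grey band spans the range between the quartiles of all tested genes. The interval of Kif3a runs from 0.0037 to 0.83, and the intervals of the other 12 genes include 0.

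Proteins that work with Rad50, Kif3a and Uqcrq gave a comparison within each complex. The partners of Rad50 are Mre11a, its nuclease, Nbn, which recruits the complex, and Atm, the kinase it activates. Of these 3 genes 0 were called in limma, against 1.29% of all tested genes. An unadjusted p below 0.05 was reached by 1 (Nbn), against 14.1% of all tested genes. In limma-voom 1 was called lower, against 2.31% of all genes so tested. Nbn had 1.57 and 1.81 RPKM in shCTCF cells, against 3.83 and 3.40 RPKM in shLuc cells, from 17 and 26 reads against 50 and 52 reads. Both shCTCF libraries lay below both shLuc libraries, as in 19.9% of all tested genes. The log2 change of −0.78 (SE 0.16) did not pass in limma (adjusted p = 0.074). It passed in limma-voom on recovered reads (−1.06, adjusted p = 0.012). In the authors' deposited table Nbn has a log2 fold change of −1.08 with an FDR of 0.0044. Mre11a and Atm had log2 changes of −0.03 and 0.16 in limma (adjusted p = 0.94 and 0.55).

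Of the kinesin-2 genes, Kif3b, the other motor subunit, had 12.4 and 11.7 RPKM in shCTCF cells, against 9.997 and 9.874 RPKM in shLuc cells (log2 change 0.26, SE 0.10, adjusted p = 0.31 in limma). Kifap3, the subunit that binds cargo, averaged 24.5 ± 2.27 RPKM in shCTCF cells and 25.7 ± 1.63 RPKM in shLuc cells (SD, n = 2 each). Both shCTCF libraries lay above both shLuc libraries for Kif3a and Kif3b, as for 24.1% of all tested genes, and neither gene passed. Kif3c, an alternative motor subunit, shares its row with 1110002L01Rik, and that row had 6.71 and 7.996 RPKM in shCTCF cells, against 7.03 and 6.64 RPKM in shLuc cells, which overlap. Of these 2 tested partners 0 were called in limma and 0 in limma-voom, against 1.29% and 4.9% of all genes so tested. For 1 the unadjusted p was below 0.05, against 14.1% of all tested genes.

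For complex III, 7 other subunits were tested. In limma and in limma-voom 0 were called, against 1.29% and 4.9% of all genes so tested. Only 1, Uqcr11, had an unadjusted p below 0.05, against 14.1% of all tested genes. Their median log2 change was 0.19, against 0.01 over all tested genes. Some small subunits were highest in 1 library. Uqcr11 had 180 and 245 RPKM in shCTCF cells, against 165 and 167 RPKM in shLuc cells, and Uqcr10 had 183 and 254 RPKM in shCTCF cells, against 193 and 178 RPKM in shLuc cells. Uqcrh had 133 and 177 RPKM in shCTCF cells, against 132 and 134 RPKM in shLuc cells. Uqcrb had 68.1 and 95.1 RPKM in shCTCF cells, against 62.2 and 79.4 RPKM in shLuc cells. In each of these genes the shCTCF library headed 3 was the highest of the 4 libraries. For Uqcr11 both shCTCF libraries lay above both shLuc libraries, as for 24.1% of all tested genes. Uqcrq, Uqcrc1, Uqcrfs1 and Cyc1 did not share the peak in that library, each with its highest value in the shLuc library headed 2. Cyc1, the cytochrome c1 subunit, averaged 227 ± 4.68 RPKM in shCTCF cells and 227 ± 22.0 RPKM in shLuc cells.

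**Figure D5:**
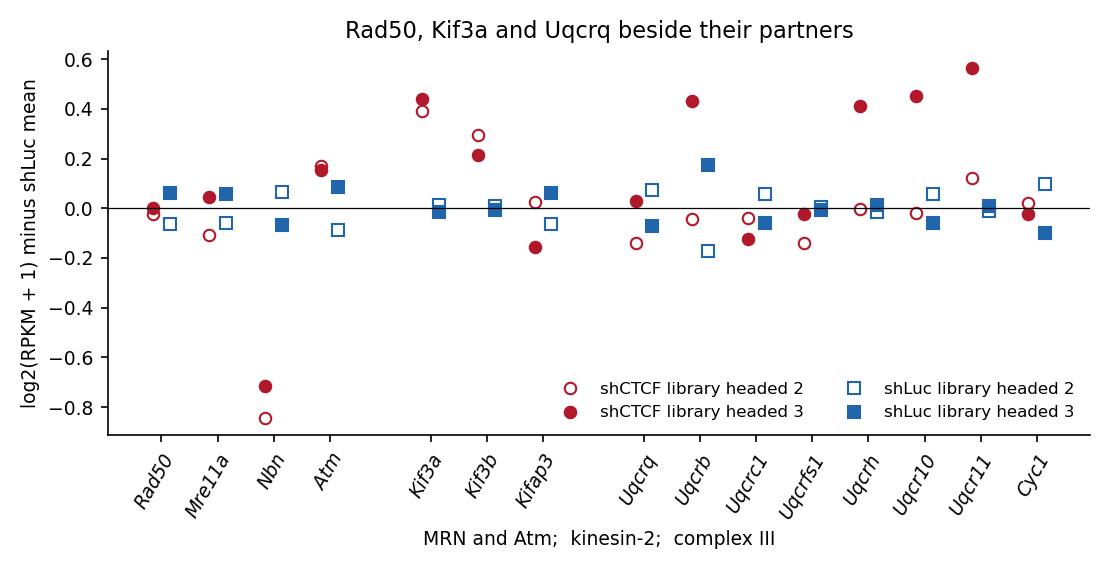
log2(RPKM + 1) minus the shLuc mean (y axis) in each library for Rad50, Kif3a and Uqcrq and the tested genes of their complexes (x axis), with circles for shCTCF and squares for shLuc. Open symbols are libraries headed 2 and filled symbols those headed 3. Nbn lies low in both shCTCF libraries, and Kif3a and Kif3b lie high in both. Uqcr11, Uqcr10, Uqcrh and Uqcrb are highest in the shCTCF library headed 3.

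Receptor chains for the cytokines of the locus were expressed in part. Of 9 receptor chains 5 were tested, and 0 were called in limma or limma-voom, against 1.29% and 4.9% of all genes so tested. An unadjusted p below 0.05 was found for 1, against 14.1% of all tested genes. Il2rg, the common gamma chain, was the most highly expressed at 86.3 ± 2.18 RPKM in shCTCF cells and 97.0 ± 2.80 RPKM in shLuc cells (SD, n = 2 each). Il4ra, the chain that binds IL-4, had 9.26 and 8.34 RPKM in shCTCF cells, against 11.1 and 11.2 RPKM in shLuc cells (log2 change −0.31, SE 0.11, adjusted p = 0.24 in limma). Il3ra, Csf2rb and Il5ra averaged 10.4, 5.02 and 2.72 RPKM in shCTCF cells and 9.47, 5.39 and 2.47 RPKM in shLuc cells. Csf2ra, the GM-CSF binding chain, had 1 and 2 reads in shCTCF cells, against 5 and 7 reads in shLuc cells, and was not tested. Il13ra2 had no read, and Il13ra1 had 2 and 1 reads in shCTCF and 1 and 4 reads in shLuc libraries.

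Of the kinases and factors that signal from these receptors 7 had rows of their own and 5 were tested. Of these 0 were called in limma or limma-voom, against 1.29% and 4.9% of all genes so tested. At an unadjusted p below 0.05 there were 0, against 14.1% of all tested genes. Stat5a averaged 32.6 ± 1.17 RPKM in shCTCF cells and 36.2 ± 2.47 RPKM in shLuc cells (SD, n = 2 each), and Socs1, a feedback inhibitor, 36.6 ± 1.42 RPKM in shCTCF cells and 34.9 ± 3.27 RPKM in shLuc cells. Stat6, the factor downstream of IL-4, shares its row with Nab2. That row averaged 42.2 ± 0.895 RPKM in shCTCF cells and 43.1 ± 2.90 RPKM in shLuc cells, and reads of the 2 genes cannot be told apart there.

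Of 25 regulators of the locus and of Th2 differentiation 21 were tested. Only Ctcf was called in limma, against 1.29% of all tested genes. Ctcf is itself the target of the hairpin. In value 16 of 21 were negative with a median log2 change of −0.15, against 46.7% negative and a median of 0.01 over all tested genes. An unadjusted p below 0.05 was found for 7, Ctcf included, against 14.1% of all tested genes. Of these 7 only Junb was higher in shCTCF cells (log2 change 0.20, adjusted p = 0.33 in limma). Gata3 had 54.8 and 54.9 RPKM in shCTCF cells, against 62.3 and 65.6 RPKM in shLuc cells (adjusted p = 0.25 in limma). Ikzf1 and Chd4, the most highly expressed of the list, averaged 423 ± 7.03 and 169.5 ± 0.0547 RPKM in shCTCF cells and 472 ± 1.19 and 160.3 ± 0.312 RPKM in shLuc cells (SD, n = 2 each). With limma-voom on recovered reads 15 of the list could be tested and 4 were lower, against 2.31% of all genes so tested. These were Ctcf and, with log2 changes of −0.45, −0.34 and −0.60 (adjusted p = 0.0085, 0.0064 and 0.016 in limma-voom), Gfi1, Ets1 and Irf4. In limma their adjusted p-values were 0.081, 0.10 and 0.17. The authors' deposited table lists Gfi1, Ets1 and Irf4 with an FDR of 0.0022, 0.00062 and 0.0088. Maf, a direct activator of Il4, and Hlx had no read in any of the 4 libraries. Nfatc2 averaged 10.9 ± 0.454 RPKM in shCTCF cells and 13.0 ± 1.09 RPKM in shLuc cells (adjusted p = 0.39 in limma).

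Of 19 cytokine genes elsewhere 8 had no read in any library, Il2, Il9 and Il21 among them, against 35.7% of all symbols. The 6 that reached 1 RPKM, against 45.3% of all symbols, were tested. Of these 0 were called in limma or limma-voom, against 1.29% and 4.9% of all genes so tested. For 1 the unadjusted p was below 0.05, against 14.1% of all tested genes. The most highly expressed were Tgfb1, at 65.5 ± 3.54 RPKM in shCTCF cells and 77.8 ± 5.61 RPKM in shLuc cells, and Tnf, at 6.45 ± 0.331 RPKM in shCTCF cells and 5.27 ± 0.952 RPKM in shLuc cells (SD, n = 2 each). Of 8 other Th2 genes with rows of their own 4 were tested. In limma 1 was called higher and 1 lower, against 0.697% and 0.596% of all tested genes. An unadjusted p below 0.05 was reached by 3, against 14.1% of all tested genes. Ccr8 and Il17rb had log2 changes of −0.27 and −0.02 and were not called, and Ccr3 and Pparg had no read. Ccr4, a chemokine receptor, fell in limma by 0.74 on the log2 scale (SE 0.09, adjusted p = 0.011). Ecm1, a secreted protein of Th2 cells, rose to 13.6 and 12.0 RPKM in shCTCF cells, against 7.55 and 6.45 RPKM in shLuc cells (log2 change 0.79, SE 0.12, adjusted p = 0.027 in limma). Both limma calls were lost without either shLuc library and without the shCTCF library headed 3, and that of Ecm1 also without the shCTCF library headed 2. When 1 library was left out the log2 change ran from −0.82 to −0.66 for Ccr4 and from 0.69 to 0.89 for Ecm1. In limma-voom Ccr4 and Ecm1 passed (adjusted p = 4.6e-06 and 0.00088). The authors' deposited table lists them with an FDR of 3.1e-11 and 5.0e-05.

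T cell markers were high, and B cell and myeloid markers were low or at 0. The 7 T cell markers with rows of their own summed to 1217 RPKM in both shCTCF libraries, against 1400.5 and 1404 RPKM in the shLuc libraries. Thy1 made up most of that difference. It had 483 ± 21.1 RPKM in shCTCF cells and 615 ± 35.4 RPKM in shLuc cells (SD, n = 2 each). Cd2, Cd28 and Lck had log2 changes of −0.41, −0.27 and −0.23, whereas Cd3d, Cd3e and Cd3g had −0.03, 0.01 and −0.03. In Thy1, Cd2, Cd28 and Lck both shCTCF libraries lay below both shLuc libraries, as in 19.9% of all tested genes. Of the 7, 0 were called in limma, against 1.29% of all tested genes. An unadjusted p below 0.05 was found for 4, against 14.1% of all tested genes. In limma-voom 6 of the 7 could be tested and 1, Thy1, was lower, against 2.31% of all genes so tested. In value 6 of the 7 were negative, against 46.7% of all tested genes. The B cell markers Ms4a1 and Pax5 had no read, and the list summed to 0.173 to 0.565 RPKM in shCTCF and 0 to 0.369 RPKM in shLuc libraries. Of the markers of mast cells, basophils and eosinophils, which also make these cytokines, Ms4a2, Fcer1a and Prg2 had no read. Cpa3, a mast cell protease, fell to 71.3 and 73.6 RPKM in shCTCF cells, against 116 and 128 RPKM in shLuc cells (log2 change −0.74, SE 0.08, adjusted p = 0.0091 in limma). That call was lost without the shLuc library headed 2 or 3, at log2 changes of −0.81 and −0.68. Cpa3 passed in limma-voom (−0.75, adjusted p = 1.1e-06) and has an FDR of 5.7e-14 in the authors' deposited table. The myeloid list summed to 5.16 to 6.66 RPKM in shCTCF and 4.03 to 5.02 RPKM in shLuc libraries, with Emr1 at 0. In it Cd68, a lysosomal protein of macrophages, had 3.65 and 3.10 RPKM in shCTCF cells, against 1.70 and 1.46 RPKM in shLuc cells (log2 change 0.76, adjusted p = 0.089 in limma and 0.13 in limma-voom). Itgam averaged 2.05 ± 0.438 RPKM in shCTCF cells and 2.51 ± 0.838 RPKM in shLuc cells (SD, n = 2 each). The innate lymphoid and NK list summed to 19.4 to 23.8 RPKM in shCTCF and 28.8 to 32.7 RPKM in shLuc libraries, with Klrk1 at 0. Most of it was Il7r, which T cells express too, at 21.5 and 17.1 RPKM in shCTCF cells, against 26.7 and 30.7 RPKM in shLuc cells. Il7r did not pass in limma (log2 change −0.56, adjusted p = 0.090), was lower in limma-voom (−0.60, adjusted p = 0.00063) and has an FDR of 0.00024 in the authors' deposited table. The part of these markers in the values above was not tested.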

How the data were processed

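The authors deposited RPKM, reads scaled by gene length and depth, for 22119 rows. For 435 changed genes they also deposited log2 values (fold change and mean CPM) and, per the file headers, the p-value with its FDR. Reads were aligned with Bowtie2 to mm9, per the submitters' processing notes. The read counter, annotation release and strand setting: not given in the sources used here. Columns name the hairpin but number libraries 2 and 3, whereas titles use r1 and r2, so columns served as replicates of their hairpin.

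Genes with a mean of 1 RPKM or more (9898) were compared on log2(RPKM + 1) by the moderated test of limma 3.58.1 (R 4.3.3) with a mean-variance trend, with Benjamini-Hochberg adjustment over all of them at 0.05. Whole reads were recovered as the smallest whole numbers that gave a whole model length (relative tolerance 2e-09). This held for 97.0% of 7035 single-transcript and 25.1% of 2905 multi-transcript rows. Reads can be too low by a common factor. Both steps were tested on simulated data. Replicate libraries differed by more than sampling noise (chi-square per degree of freedom 4.00 in shCTCF and 5.28 in shLuc).

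The genes, lists and tests were chosen with earlier results of these data known. Named genes are the 8, Ctcf, all tested neighbours, up to 4 called and the 2 highest genes of each list, and the 2 nearest profiles of each tested gene. Others were named after their values were seen. Alternatives changed the pseudocount, filter, scaling, trend, row choice, block, libraries and test. Python 3.11.15 (numpy 2.4.6, pandas 2.3.3, matplotlib 3.10.9) was used. The Hi-C domain lists were not used here, since positions of these genes in mm9 were not at hand.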

Additional observations from a re-analysis of the deposited data

How the results depend on the processing

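The number of called genes, 128, was 0 without the filter on low values (1619 at an unadjusted p below 0.05), 60 without the trend, 507 with the replicate block and 369 with limma-voom on recovered reads (7524 genes). It was 0 to 78 when 1 library was left out. The cause was not tested, though such a fit has fewer samples. Uqcrq, Rad50 and Kif3a were not called in any alternative run. When 1 library was left out the log2 change of Uqcrq ran from −0.14 to 0.030 and that of Rad50 from −0.072 to 0.050, so neither has a fixed sign, and that of Kif3a from 0.39 to 0.44. The calls of Ctcf, Cpa3, Ccr4 and Ecm1 were lost without the filter (adjusted p 0.22 to 0.41), and those of Ccr4 and Ecm1 also without the trend (0.055 and 0.064). With limma-voom on recovered reads Ctcf, Cpa3, Ccr4 and Ecm1 passed (adjusted p 1.4e-08 to 0.00088). Kif3a could not be tested at a minimum of 5 RPKM. With the replicate block the adjusted p was 0.78 for Uqcrq, 0.29 for Kif3a and 0.96 for Rad50. Library numbers are not stated to mark a shared batch, and deviations of same-numbered libraries had a correlation of 0.16 over 9898 genes. Depth limits Il4, Il13, Il5 and Il3 to a statement that no expression above the limit of a 0 count was detectable. Il4 and Il3 had no read, and Il13 and Il5 had 1 read in 1 library of each group. Rows without reads give no model length.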
